A study of Mus musculus with 3 samples.

Results

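Cadherin genes other than the vascular cadherin Cdh5 were followed in cultured mouse lymphatic endothelial cells: Cdh1, Cdh2, Cdh3, Cdh6, Cdh11, Cdh13 and Pcdh18. Every probe set that the platform annotation gives to 1 of these 7 genes was read, 16 of the 45101 probe sets on the array. The genes are 7 of the 18194 with a value. They were selected on their family and with their intensities on these same 3 arrays, and the differences between passages, already known, so levels and differences are a description and not a test. The samples were 3 cultures of immortalized lymphatic endothelial cells (imLEC) from mouse skin, 1 each at passages 13, 14 and 18. The cells derive from H-2Kb-tsA58 mice (ImmortoMice), labelled normal and healthy, and were isolated by FACS. They were immortalized by an SV40 large T antigen that is temperature-sensitive and is induced by interferon-gamma. All 3 cultures had grown at 33 °C with interferon-gamma on collagen and fibronectin, and then spent 3 days at 37 °C without it, a step meant to degrade the T antigen. The labels do not say how many animals or sorts the cultures trace back to, so the spread between them is that of 3 cultures and may not reflect separate isolations.

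Cadherins are calcium-dependent adhesion receptors that bind the same or a related cadherin on the next cell. Classical cadherins hold beta-catenin, plakoglobin and p120-catenin on their cytoplasmic tail and so connect the junction to actin. Endothelium builds its adherens junctions from Cdh5 (VE-cadherin) and also carries N-cadherin, the product of Cdh2, which is known for contacts with mural cells. A loss of Cdh1 with a gain of Cdh2 is a widely used mark of epithelial cells taking on a mesenchymal state, and Cdh11 is a cadherin typical of mesenchymal cells.

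The array reports a signal intensity for each probe set, given here as deposited or as its log2. A gene was called detected when its brightest probe set lay above a floor on all 3 arrays, the floor being the 95th percentile of 39 genes restricted to other tissues. This put the floor at 32.0 intensity units for passage 13, 42.8 for passage 14 and 33.2 for passage 18, or 5.00, 5.42 and 5.05 in log2. By this call 9630 of 18194 genes (52.9%) were detected. The median intensity of all probe sets was 25.7, 26.0 and 26.3 at the 3 passages. The passage 18 array stood apart in an RNA quality control: its Gapdh control probes gave a 3′/5′ signal ratio of 19.4, where passages 13 and 14 gave 8.59 and 7.10. The Actb controls differed less, with ratios of 1.18, 1.20 and 1.42 in order of passage. The part of RNA quality in the differences reported here was not tested. In cultures measured in bulk, a change in the number of cells that express a gene and a change in RNA per cell cannot be told apart.

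Of the 7 genes, 5 were detected (Cdh2, Cdh3, Cdh11, Cdh13 and Pcdh18) and 2, Cdh1 and Cdh6, were below the floor on all 3 arrays. Cdh11, Pcdh18 and Cdh2 were each at least 2-fold higher at passage 18 than at passage 13, whereas Cdh13 and Cdh3 differed by less. Cdh11 and Cdh2 were also lower at passage 14 than at passage 13, and Pcdh18 was not. Of the 16 probe sets, 9 were above the floor on all 3 arrays, 5 were below it on all 3, and 2 were mixed.

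**Figure D1:**
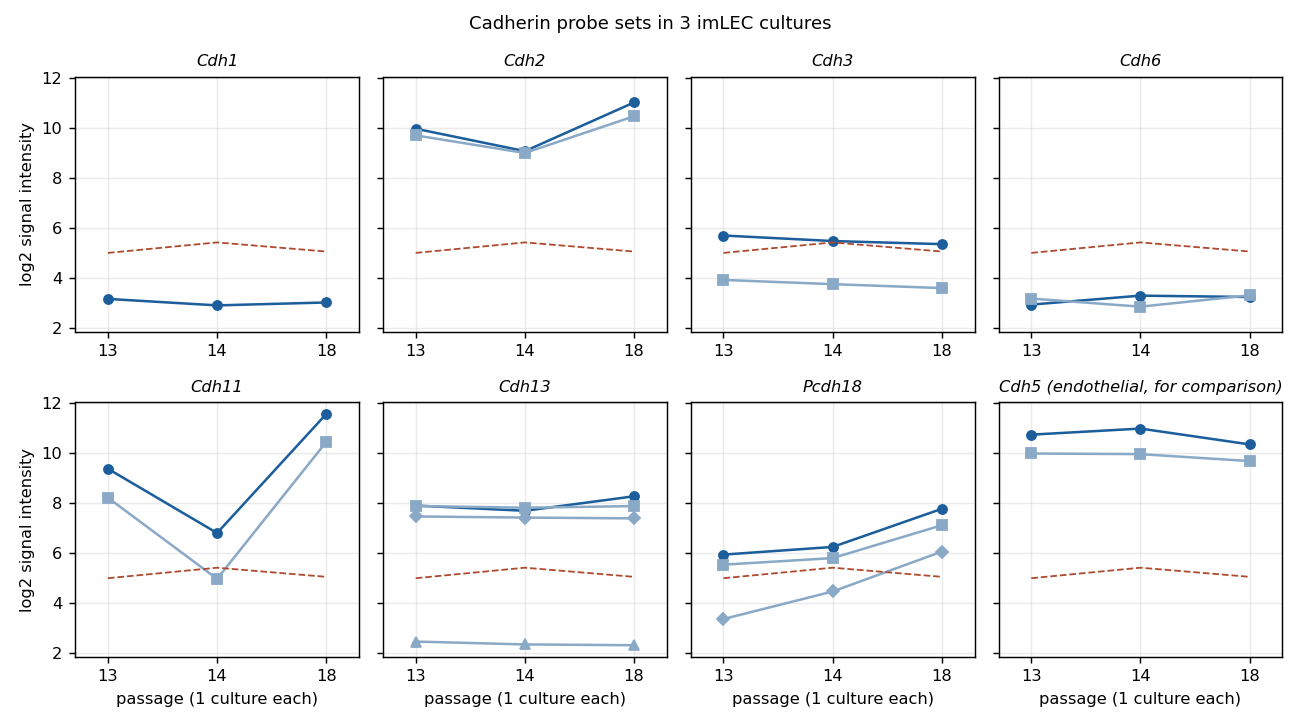
Log2 signal intensity (vertical axis) of every probe set of the 7 cadherin genes and of Cdh5, at passages 13, 14 and 18 (horizontal axis, 1 culture each). Each line is a probe set, the dark line is the brightest one, and the dashed line is the floor: Cdh1 and Cdh6 lie below it, and both Cdh11 and both Cdh2 lines dip at passage 14 and are highest at passage 18.

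Cdh11 (OB-cadherin, a type II classical cadherin of osteoblasts, fibroblasts and other mesenchymal cells) had the widest spread of the 7. Its brighter probe set read 663.5 at passage 13, 111.9 at passage 14 and 3023 at passage 18. The second probe set read 297.7, 31.4 and 1394 in the same order, with its passage 14 value below the floor of 42.8. Both therefore placed the cultures in the same order, lowest at passage 14 and highest at passage 18. The mean log2 intensity of the brighter probe set was 9.25 ± 2.38 (SD, n = 3 cultures), and 1 of the 9630 detected genes had a larger SD. The level at passage 18 was 4.56-fold that at passage 13 by the brighter probe set and 4.68-fold by the other. Against passage 14, passage 18 was 27.0-fold higher by the brighter probe set, and no detected gene had a larger difference between these cultures. Between passages 18 and 13, 12 detected genes had a more positive difference than Cdh11.

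Cdh2, N-cadherin, is a type I classical cadherin of neural, mesenchymal and endothelial cells. Its brighter probe set read 998.2 at passage 13, 535.8 at passage 14 and 2066 at passage 18. The other read 830.1, 509.6 and 1409. The order of the cultures was that of Cdh11, with smaller steps. The mean log2 intensity was 10.01 ± 0.97 (SD, n = 3), and passage 18 was 2.07-fold higher than passage 13 by the brighter probe set and 1.70-fold by the other. The 2-fold mark is thus passed by 1 of its 2 probe sets. Passage 18 was 3.86-fold higher than passage 14, and 109 detected genes had a more positive difference between these cultures.

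Pcdh18, a delta-protocadherin, belongs to a cadherin branch whose cytoplasmic tails do not hold beta-catenin. Its brightest probe set read 61.5 at passage 13, 76.1 at passage 14 and 218.8 at passage 18. The second read 46.6, 55.9 and 138.8, and the dimmest 10.3, 22.2 and 66.9, the last passing the floor at passage 18 alone. All 3 probe sets were highest at passage 18 and lowest at passage 13, so Pcdh18 did not share the dip of Cdh11 and Cdh2 at passage 14. The mean log2 intensity was 6.66 ± 0.98 (SD, n = 3). Passage 18 was 3.56-fold higher than passage 13 by the brightest probe set and 2.98-fold by the second, and 28 detected genes had a more positive difference. At passages 13 and 14 these levels were close to the floors of 32.0 and 42.8, whereas 218.8 at passage 18 was well above 33.2. With the floor at the 99th percentile Pcdh18 was not detected.

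Cdh13, T-cadherin, lacks a transmembrane and cytoplasmic part, is held in the membrane by a lipid anchor and binds adiponectin. Its brightest probe set read 239.1 at passage 13, 207.1 at passage 14 and 309.4 at passage 18. The next 2 probe sets read 236.4, 225.4 and 235.8, and 177.0, 171.6 and 167.8. The fourth was below the floor on all arrays, at 5.53, 5.11 and 5.00. Only the brightest probe set was clearly higher at passage 18, by 1.29-fold over passage 13. The next 2 read 1.00-fold and 0.95-fold at passage 18 relative to passage 13, and the median of the 4 probe sets gave a log2 difference of -0.04 between passages 18 and 13, against 0.37 for the brightest. The direction for Cdh13 is therefore not settled by these probe sets.

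Cdh3, P-cadherin, is a type I cadherin of basal epithelium. It read 51.8 at passage 13, 44.5 at passage 14 and 40.8 at passage 18, just above the floors of 32.0, 42.8 and 33.2. Its second probe set was below the floor throughout, at 15.1, 13.5 and 12.1. Passage 14 cleared its floor by the least, and Cdh3 was not detected when the median of its probe sets was used. Cdh1, E-cadherin, the cadherin of epithelial junctions, read 8.95, 7.48 and 8.11 on its single probe set. Cdh6, K-cadherin, a type II cadherin of the developing kidney, read 7.65, 9.80 and 9.44 on the brighter and 9.03, 7.22 and 9.90 on the other of its probe sets. All 9 of these Cdh1 and Cdh6 values were below the floor and set only an upper limit on the transcripts.

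The reference table holds the start site of 2 of the 7 genes, Pcdh18, higher at passage 18, and Cdh6, below the floor. The 250 bases before each start are shown to compare their base composition, 5′ to 3′ on the gene's strand, with every CG dinucleotide in capitals (RefSeq, GRCm38.p6, minus strand for both). They are at chr3:49757317-49757566 for Pcdh18 and chr15:13173676-13173925 for Cdh6.
Pcdh18: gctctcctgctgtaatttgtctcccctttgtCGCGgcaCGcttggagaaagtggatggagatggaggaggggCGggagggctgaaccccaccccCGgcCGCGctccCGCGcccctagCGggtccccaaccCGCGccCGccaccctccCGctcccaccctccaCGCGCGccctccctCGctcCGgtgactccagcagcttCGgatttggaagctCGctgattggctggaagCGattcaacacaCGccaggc
Cdh6: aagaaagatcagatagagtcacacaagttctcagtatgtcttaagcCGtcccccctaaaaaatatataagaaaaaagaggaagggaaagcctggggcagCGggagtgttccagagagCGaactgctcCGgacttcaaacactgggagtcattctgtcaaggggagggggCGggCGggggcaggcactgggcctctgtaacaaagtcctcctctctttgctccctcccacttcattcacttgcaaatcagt
The Pcdh18 window holds 23 CG dinucleotides and is 68.0% G or C, and the Cdh6 window holds 6 and is 51.2% G or C. Over the 32851 windows of that length in the table the median was 6 CG dinucleotides and 52.4% G or C. The E-box CACCTG, a motif that Snail and Zeb factors are known to bind, was searched on both strands. Neither window holds it, against 17.2% of all windows.

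The differences between single cultures were read against those of all 9630 detected genes. Between passages 18 and 13, 3 of the 5 detected cadherins were at least 2-fold higher, against 2.27% of detected genes, and 0 were at least 2-fold lower, against 2.34%. Between passages 14 and 13, 0 were at least 2-fold higher (2.16% of detected genes) and 1, Cdh11, was at least 2-fold lower (3.02%). Between passages 18 and 14, 3 were at least 2-fold higher (6.41%) and 0 at least 2-fold lower (5.66%). The median log2 difference of the 5 detected genes was 1.05 between passages 18 and 13 and -0.22 between 14 and 13, against -0.01 and -0.002 over all detected genes. Because the genes were chosen with these differences known, nothing is read from the shares. Cdh2, Cdh11 and the brightest probe set of Cdh13 were lowest at passage 14 and highest at passage 18, an order held by 24.7% of detected genes.

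**Figure D2:**
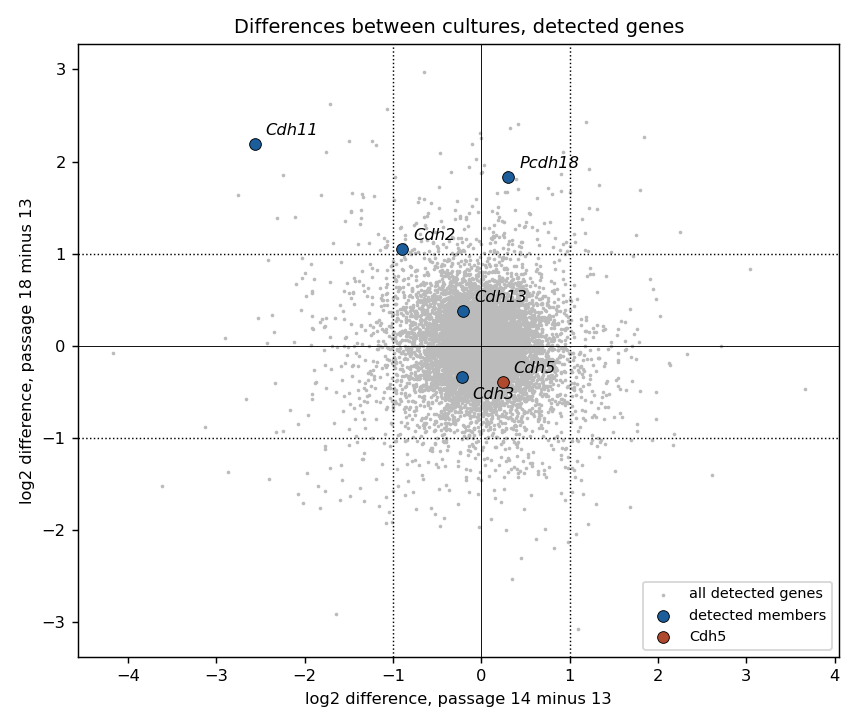
Log2 difference of passage 14 minus 13 (horizontal axis) against passage 18 minus 13 (vertical axis) for the 9630 detected genes (grey), the 5 detected cadherins (blue) and Cdh5 (red), each point 1 gene, with dotted lines at 2-fold. Cdh11 lies at -2.57 and 2.19, away from the cloud, and Pcdh18 lies at 0.31 and 1.83.

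A line fitted over passage number with limma gave slopes of 0.65 ± 0.33 log2 units per passage for Cdh11, 0.37 ± 0.07 for Pcdh18, 0.29 ± 0.13 for Cdh2, 0.09 ± 0.07 for Cdh13 and -0.06 ± 0.07 for Cdh3 (SE, n = 3). Across all genes 0 of 10322 (0%) passed an adjusted p of 0.05 in this fit (limma, Benjamini-Hochberg), and 373 had an unadjusted p under 0.05. The fit has 1 residual degree of freedom per gene, which holds the departure from a straight line and not a spread between replicate cultures of a passage.

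The 3 cultures gave other genes with steps like those of the cadherins, measured as the distance between the log2 differences of 14 minus 13 and 18 minus 13. The nearest to Cdh11 was Acta2, smooth muscle actin, at a distance of 0.46, followed by Vnn1, a pantetheinase, at 0.58 and Ptx3, a secreted pentraxin of innate immunity, at 0.81. No detected gene lay within 0.25 of Cdh11. The nearest to Cdh2 were the phosphatase gene Ptprj (0.02), the membrane-type metalloproteinase gene Mmp16 (0.06) and Prkab2, a subunit of AMP-activated kinase (0.09), and 30 detected genes lay within 0.25. The nearest to Pcdh18 were Kcnip1, a potassium channel-interacting protein (0.06), the anthrax toxin receptor gene Antxr1 (0.09) and Gldc, a subunit of the glycine cleavage system (0.17), with 6 genes within 0.25. Cdh13 and Cdh3 had 939 and 1050 genes within 0.25, the nearest being Aak1, Dusp22 and Slc25a4 for Cdh13 and Alas1, Cyb5r1 and Rnf111 for Cdh3. With 3 arrays these distances rest on 2 differences per gene.

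Cdh5, the endothelial cadherin, moved the other way from Cdh2, Cdh11 and Pcdh18 between passages 18 and 13. It read 1705 at passage 13, 2018 at passage 14 and 1301 at passage 18 on its brighter probe set. The other read 1012, 994.6 and 820.1, also lower at passage 18 but without a rise at passage 14. Relative to Cdh5 on the same arrays, passage 18 was 5.97-fold above passage 13 for Cdh11, 4.66-fold for Pcdh18, 2.71-fold for Cdh2, 1.70-fold for Cdh13 and 1.03-fold for Cdh3. Each ratio uses the brightest probe set of the gene and of Cdh5. For Cdh13 the other 2 above the floor gave 1.31-fold and 1.24-fold. The other Cdh2 probe set rose less from passage 13 to 18, by 1.70-fold against 2.07-fold before division by Cdh5. These ratios show unequal change within an array and not the relative abundance of the transcripts. In the RefSeq gene table Cdh1 and Cdh3 are neighbours on chromosome 8 with no protein-coding gene between them, and Cdh11, Cdh13 and Cdh5 lie on the same chromosome. Cdh2 lies on chromosome 18, Cdh6 on 15 and Pcdh18 on 3.

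Most of the other cadherin superfamily genes were at or below the floor. Of 71 measured besides the 7, 12 were detected, 48 were below the floor on all arrays and 11 passed it on 1 or 2. The 6 measured desmosomal cadherins, which build epithelial desmosomes, were all below it. Cdh26 was the 1 other detected family gene at least 2-fold higher at passage 18 than at 13. Its log2 levels were 6.91, 7.71 and 8.55 at passages 13, 14 and 18. Among the 11 that passed the floor on 1 or 2 arrays, more were that much higher: Pcdhb16 (3.33-fold), Celsr2 (3.20-fold), Pcdhb19 (2.65-fold), Pcdhb15 (2.51-fold) and Pcdhb20 (2.39-fold). Each was lowest at passage 14 and passed the floor at passage 18. Pcdhb15 and Pcdhb19 passed it at passage 18 alone, so being higher there follows from the call. Lower at passage 18 than at 13 were Pcdh17 (1.83-fold), Pcdh1 (1.60-fold) and Dchs1 (1.48-fold). Pcdh1 and Dchs1 passed the floor at passage 13 alone, so that direction largely follows from the call. Pcdh17 passed it at passage 14 alone, so both values compared were below the floor. Of the 12 detected, Pcdh9, Pcdh19 and Pcdhb22 were at least 2-fold lower at passage 14 than at 13. Pcdh19, a delta-protocadherin like Pcdh18, was at 8.71, 7.57 and 8.94, and Pcdh9, another, at 8.68, 7.57 and 9.06. They thus had the dip at passage 14 that Pcdh18 lacked. Fat1, a giant cadherin, was at 10.91, 10.08 and 11.57, in the same order as Cdh2 and Cdh11. The 12 detected genes had a median log2 difference of 0.34 between passages 18 and 13 and 0.93 between 18 and 14, against -0.01 and -0.0001 for all detected genes. At least 2-fold higher at passage 18 than at 14 were 6 of the 12, against 6.41% of detected genes. At least 2-fold lower were 0, against 5.66%. Lowest at passage 14 and highest at passage 18 were 6 of the 12, against 24.7%.

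**Figure D3:**
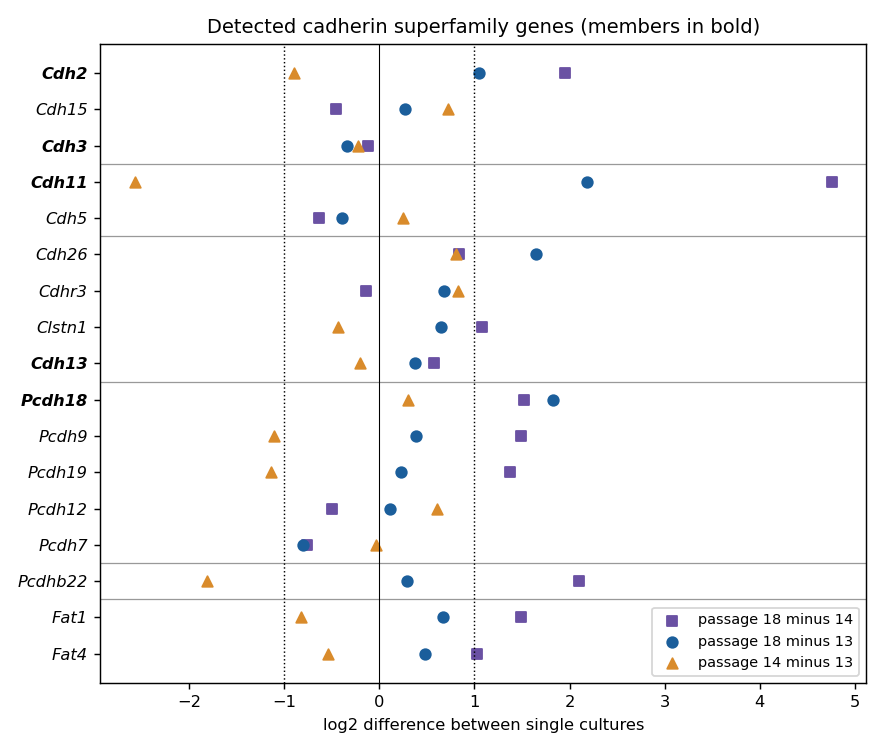
Log2 differences between single cultures (horizontal axis) for the 17 detected cadherin superfamily genes (rows, with the 7-gene set's members in bold), as circles for passage 18 minus 13, triangles for 14 minus 13 and squares for 18 minus 14, and dotted lines at 2-fold. Cdh11 has the outermost points, and Cdh26 and Pcdh18 are high in the circles without a negative triangle.

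The cytoplasmic partners of the classical cadherins were mostly detected (10 of 14). Ctnnb1, beta-catenin, was at 12.78 ± 0.07 and Ctnna1, alpha-catenin, at 12.23 ± 0.14 (SD, n = 3), so these common partners varied little beside Cdh2 and Cdh11. Other genes of the list varied more. Ctnna2, another alpha-catenin, fell below the floor at passage 14 alone (102.5, 14.8 and 202.0 intensity units in order of passage), as did Pkp1 (35.0, 17.3 and 59.9). Ctnnd1, p120-catenin, was 1.44-fold higher at passage 18 than at 13. Ctnnd2, delta-catenin, was the 1 gene of this list at least 2-fold higher (2.15-fold) and Arvcf, its relative, was 1.94-fold higher. Jup, plakoglobin, dipped at passage 14, with 9.30, 7.80 and 8.79 at passages 13, 14 and 18. Of the proteases and other turnover genes, 7 of 10 were detected and 0 differed 2-fold in any pair of cultures. Adam10, the sheddase of N-cadherin, was at 11.03 ± 0.05 (SD, n = 3). Of the binding partners of N-cadherin and T-cadherin, 7 of 8 were detected and 0 differed 2-fold. The adiponectin gene Adipoq was below the floor.

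Genes whose products repress Cdh1 were detected in 6 of 7 cases. Snai2, a zinc finger repressor, was at 9.98, 9.06 and 11.25 at passages 13, 14 and 18, the order of Cdh2 and Cdh11. It was 2.42-fold higher at passage 18 than at 13, read on a probe set ending in _x_at. Of the 6 detected genes of this list 2 had the order of Cdh11, against 24.7% of all detected genes. Twist1, a basic helix-loop-helix factor, was 2.71-fold higher at passage 18, with 7.26, 7.80 and 8.70. Zeb1 was at 9.67 ± 0.21 and Tcf4 at 11.00 ± 0.06 (SD, n = 3). Zeb2 gave log2 values of 8.83, 7.74 and 8.71 in order of passage, a drop of 2.13-fold from the first culture to the second. Unlike Snai2 and Twist1, Zeb2 ended slightly under its passage 13 level, with a log2 difference of -0.12 for passage 18 minus 13. Cdh1 itself was below the floor on all 3 arrays, so no relation with these genes can be read from it.

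Markers of other cell types were read on the same arrays, since Cdh11, Cdh2 and Pcdh18 are also expressed by mesenchymal cells. Among 16 fibroblast genes 7 were detected, and 4 of those 7 (Col1a1, Col3a1, Prrx1 and Twist2) were at least 2-fold higher at passage 18 than at 13. Over all detected genes that share was 2.27%. The lists were chosen with earlier results known, so nothing is read from the shares. S100a4 was 1.61-fold higher, and 2 went the other way, Fbln1 at 1.86-fold lower and Thy1 at 1.45-fold lower. The fibroblast list summed to 8652 intensity units at passage 13, 8158 at passage 14 and 13139 at passage 18. Most of each sum was S100a4 alone, at 5070, 5827 and 8185. Col1a1 was at 8.04, 6.54 and 10.26, the order of Cdh11. Of the 7 detected fibroblast genes 2 had that order, against 24.7% of all detected genes. Below the floor at every passage were 6 genes, among them Pdgfra, a receptor used as a fibroblast marker, at 15.9, 29.4 and 29.6 intensity units. Col1a2 fell below it at passage 14 alone (100.7, 15.9 and 318.4). Postn (15.8, 4.47 and 52.8) and Dcn (25.4, 10.5 and 45.3) passed it at passage 18 alone. For Postn and Dcn, being highest at passage 18 follows from passing the floor there alone. Their values at passages 13 and 14 set only an upper limit, so no order is read from them. Among 12 mural genes 4 were detected, with summed intensities of 6804, 1253 and 7883. Most of each sum was Acta2 and Tagln. Acta2 was at 10.52, 8.27 and 12.37 and Pdgfrb was 2.65-fold higher at passage 18 than at 13, whereas Tagln was 2.58-fold lower. Mcam read 557.2, 110.5 and 420.8, 5.04-fold lower at passage 14 than at 13. Cnn1 (2.12-fold higher at passage 18 than at 13) and Notch3 (2.09-fold) passed the floor at passage 18 alone. Des, 1.42-fold lower, passed it at passage 13 alone. For Cnn1, Notch3 and Des the direction largely follows from passing the floor on that array alone. The pericyte gene Rgs5 was below the floor on all arrays. The part of such cells in the cadherin differences was not tested.

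Of the epithelial list 5 of 17 genes were detected, 0 of them 2-fold different between passages 18 and 13, and Epcam was below the floor on all arrays, as Cdh1 was. Krt19, one of the detected keratins, was 2.52-fold lower at passage 14 than at 13. Krt18 (1.62-fold) and Esrp2 (1.43-fold) were higher at passage 18 than at 13. Krt19 (1.51-fold), Cldn3 (1.11-fold) and Krt5 (1.09-fold) were lower. Ocln, occludin of tight junctions, passed the floor at passage 14 alone, with 12.6, 230.4 and 11.3 intensity units at passages 13, 14 and 18. The summed intensity of the epithelial list was 2369, 1986 and 2594 at passages 13, 14 and 18, most of it Krt19 and Esrp2. Of the Schwann cell and melanocyte list 1 of 7 genes (Mitf) was detected, and of the leukocyte list 4 of 9, with Ptprc below the floor. Those 4 were each lower at passage 18 than at 13 (median log2 difference -0.86). Cd53 (3.78-fold) and Cd68 (2.18-fold) were at least 2-fold lower, against 2.34% of all detected genes. The leukocyte list summed to 597.6, 517.2 and 279.6 intensity units at passages 13, 14 and 18. Of the endothelial list, which bears on the labelled cell type, 13 of 13 genes were detected. Each of these 13 was lower at passage 18 than at 13 (median log2 difference -0.74). At least 2-fold lower were 4, against 2.34% of all detected genes. At passage 14, by contrast, 10 of the 13 were higher than at 13 and 3 were lower. At least 2-fold higher there were 3, against 2.16% of all detected genes. Of the lymphatic list 7 of 11 were detected, with a median of -0.92 between passages 18 and 13, and Prox1 passed the floor on 2 of 3 arrays. At passage 14, 2 of these 7 were at least 2-fold higher than at 13 and 2 at least 2-fold lower. Lyve1, a hyaluronan receptor, was 8.44-fold lower at passage 18 than at 13, whereas Foxc2 and Nr2f2 had log2 differences of 0.29 and 0.01.

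**Figure D4:**
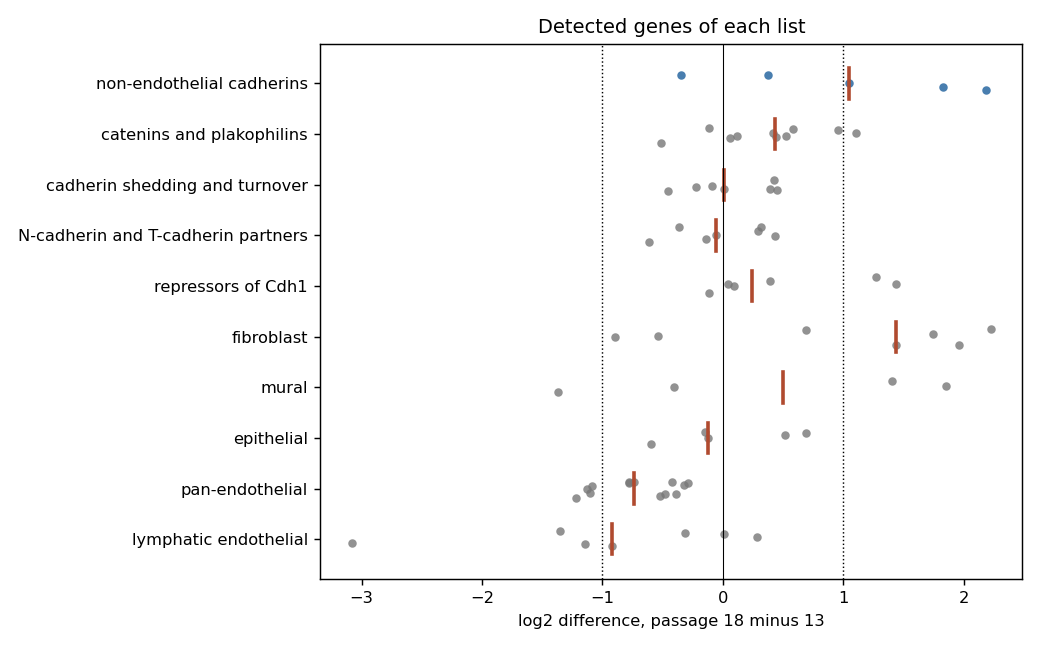
Log2 difference of passage 18 minus 13 (horizontal axis) for the detected genes of each list (rows), each point 1 gene, with the list's median as a red bar and dotted lines at 2-fold. The cadherin set has a median of 1.05 and the fibroblast list 1.44, the catenins 0.43, and the endothelial list -0.74.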

How the data were processed

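Intensities of 1-colour mouse arrays were analysed from 3 cultures, 1 per passage, with all 3 value columns used. The deposited table holds 1 linear intensity per probe set; MAS5 is named per the submitters' processing notes, with no role or version; for the other steps and the genome build, processing is not stated in the labels used. The deposited intensities shared a common scale across arrays and were not normalized again. Values were taken to log2. The annotation gave 1 gene for 34958 of 45101 probe sets, several for 932 and 9211 stay unnamed. Entrez identifiers brought 34754 of these symbols up to date (RefSeq, GRCm38.p6). Each gene was represented by its brightest probe set by mean log2. Of the 39 genes that set the floor, 2 passed it on all arrays. limma 3.58.1 (R 4.3.3, lmFit and trended eBayes) fitted a passage slope to genes with a mean above the mean floor, with 1 residual degree of freedom per gene. On simulated data with a fixed spread, the check was that set slopes were recovered on average. It does not show how many genes the fit could call at the slopes seen here. Differences between single arrays carry no p-value. Precision is limited by there being 3 arrays.

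The cadherins, the gene lists and the rules were chosen with earlier results of these data known. Named were all 7 cadherins, up to 4 of the brightest detected and 2 undetected genes per list, the 3 nearest genes by distance, and, chosen after their values were seen, genes that a small count points to and a few list examples. Alternatives were the floor percentile, the median of probe sets, dropping probe sets with _x_at or _s_at names, quantile normalization, adding 16 before log2, no filter, and leaving out each culture.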

Additional observations from a re-analysis of the deposited data

How the results depend on the processing

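The number of detected cadherins was 5 and fell to 3 (Cdh2, Cdh11 and Cdh13) with the floor at the 99th percentile, a stricter limit by construction, and was 4 without Cdh3 when the median of all probe sets was used. It was 5 under the other alternatives tried, leaving out each culture included. The number at least 2-fold higher at passage 18 than at 13 was 3, and 2 either with the median of probe sets, where Cdh2 gave a log2 difference of 0.91, or with the 99th percentile floor, where Pcdh18 was not detected. Cdh11 was the 1 gene 2-fold lower at passage 14 than at 13 in each alternative. The passage trend called 0 genes in limma under all alternatives run, with 373 to 697 genes at an unadjusted p under 0.05. Leaving out a culture left no residual degree of freedom, so the trend was not refitted. Probe sets ending in _x_at or _s_at represent none of the 7 genes. No paired analysis was possible because there is 1 group. Differences that include passage 18 rest on the array with a Gapdh 3′/5′ ratio of 19.4. Levels near the floor, those of Cdh3 and Pcdh18, are limited by signal over background.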
